A study of Homo sapiens with 11 samples.

Results

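The S100 proteins are small calcium-binding proteins that act mostly as dimers. Calcium binding exposes a surface with which they grip target proteins inside the cell, and several of them are also released and bind receptors on other cells. In epithelium they are known from barrier defence, inflammation and tumour cell movement, and most of their genes lie close together on human chromosome 1. The 10 genes described here are S100A2, S100A4, S100A6, S100A8, S100A9, S100A10, S100A11, S100A13, S100A14 and S100A16. They were named by symbol out of 28152 gene symbols in the count table, with earlier results of these data known. That table holds 20 S100 symbols, so the 10 are a part of the family. All 10 were among the 16653 genes that passed the filter on low counts.

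RNA was sequenced from tumours grown in the mammary fat pad of female athymic nude mice, which lack mature T cells but keep myeloid cells. The implanted cells are labelled BT-474 (BT474), an established human breast cancer line that the labels call HR+/Her2+. All mice, controls included, carried a slow-release estradiol pellet (0.72 mg, 90 days), and tumours entered the study above 95 cubic millimetres. The vehicle group (6 tumours) received mannitol in water under the skin every 4 days. The other group (5 tumours) received evexomostat (SDX-7320) at 12 mpk on the same schedule, and the labels give day 33 for every library. Evexomostat inhibits methionine aminopeptidase 2, an enzyme that removes the first methionine from new proteins. The comparison asks how gene expression differed between treated and vehicle tumours, here for the S100 genes, with 1 library per tumour.

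Library totals ran from 22808033 to 39249329 counts. Vehicle replicate 001 stood apart from the rest, where the 100 most abundant genes took 23.9% of the counts, and 16.2% to 17.9% elsewhere. Its log2 levels also departed from the mean of all libraries by -0.0972 per doubling of transcript length, against -0.0170 to 0.0309 elsewhere. S100 transcripts are short, with a median annotated transcript length of 601.75 bases over the 10 genes against 1063 over all tested genes. The fold change of each S100 gene is therefore given with and without that library. The line's name was not settled by these data, because several markers of luminal breast cells were near the detection limit. The luminal keratins KRT8 and KRT18 averaged 333 and 149 CPM. PGR had at most 5 counts in any library and ESR1 at most 17. The HR+ part of the label was therefore not borne out in RNA. EPCAM averaged 3.05 CPM, FOXA1 1.05 CPM, KRT19 0.804 CPM and CDH1 0.453 CPM. ERBB2, the Her2 gene, averaged 53.3 CPM, below KRT8 and KRT18, and the basal keratin KRT17 463 CPM. Without a reference level, the ERBB2 value does not settle the Her2+ part of the label. Whether the cells are BT-474 was not tested. CPM is the count scaled to library size after TMM, a correction for differences in library composition.

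Upstream sequences are shown here because S100A8 and S100A9 varied together across tumours, as described below, and S100A6 and S100A11 are shown beside them as abundant members. The RefSeq table (GRCh38.p14) had entries for all 10 genes, in 16 windows of 250 bases before a transcription start. TATAAA (the TATA box letters) was searched on both strands and found in 5 of these 16 windows, in 4 genes, against 10.7% of 35116 windows of all genes. Overlapping S100A8 windows hold the same match, so that site is counted more than once. The letters GGGCGG, a GC box, were in 6 of the 16 windows, in 6 genes, against 42.6% of all windows. S100A4 and S100A13 are added as the other genes with TATAAA. The last 100 bases before the start are printed 5′ to 3′ for 6 genes, with both motifs in capitals. They lie at chr1:153391074-153391173 for S100A8, chr1:153357754-153357853 for S100A9, chr1:153545807-153545906 for S100A4, chr1:153627506-153627605 for S100A13, chr1:153535992-153536091 for S100A6 and chr1:152037005-152037104 for S100A11. S100A9 is on the plus strand and the other 5 are on the minus strand. S100A8 and S100A13 each have further annotated starts, not printed here, among them windows without TATAAA.
S100A8: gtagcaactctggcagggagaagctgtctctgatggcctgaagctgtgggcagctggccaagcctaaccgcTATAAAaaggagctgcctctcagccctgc
S100A9: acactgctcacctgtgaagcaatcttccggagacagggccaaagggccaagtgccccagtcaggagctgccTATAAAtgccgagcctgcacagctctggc
S100A4: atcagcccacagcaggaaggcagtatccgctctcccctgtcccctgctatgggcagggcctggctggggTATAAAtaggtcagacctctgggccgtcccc
S100A13: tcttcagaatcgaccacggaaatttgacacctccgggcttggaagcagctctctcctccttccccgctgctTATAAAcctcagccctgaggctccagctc
S100A6: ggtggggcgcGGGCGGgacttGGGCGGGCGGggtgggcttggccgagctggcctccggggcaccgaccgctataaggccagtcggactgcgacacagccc
S100A11: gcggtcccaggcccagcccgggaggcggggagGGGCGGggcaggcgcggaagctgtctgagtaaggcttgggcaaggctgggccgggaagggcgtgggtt
The TATA box began 29 bases before the start in S100A8, S100A9 and S100A13 and 31 bases before it in S100A4. S100A6 and S100A11 held GC boxes and no TATAAA in this window. GC boxes were not confined to them, since S100A9 has 1 beginning 131 bases before its start, outside the printed bases. An S100A13 window that is not printed has 1 at 138 bases. Only exact letters were searched, and the printed S100A6 bases hold the near match TATAAG. A match is a description of the letters and was not tested as a binding site.

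The 10 genes together held 0.155% to 0.355% of all counts in a library. S100A6, S100A4, S100A10 and S100A11 supplied most of them, with S100A6 at 25.0% to 38.8% and S100A4 at 19.9% to 33.7% of the S100 counts. By mean RPM, S100A6 ranked 108 and S100A4 ranked 156 among 28152 symbols. To compare genes with each other, levels were divided by the exon length of each gene, giving CPM per kilobase. On that scale the order by median was S100A6 (931 CPM per kilobase), S100A4 (720), S100A11 (624.5), S100A10 (323), S100A9 (90.7), S100A16 (60.2), S100A13 (47.1), S100A8 (21.99), S100A2 (13.3) and S100A14 (0.283). Neighbours in this order mostly overlapped across libraries, and S100A6 exceeded S100A4 in 9 of 11. S100A11 lay above S100A10, and S100A2 above S100A14, with no overlap between their ranges. With median transcript lengths in place of exon lengths, S100A10 and S100A11, S100A9 and S100A16, and S100A8 and S100A2 each swapped places.

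**Figure D1:**
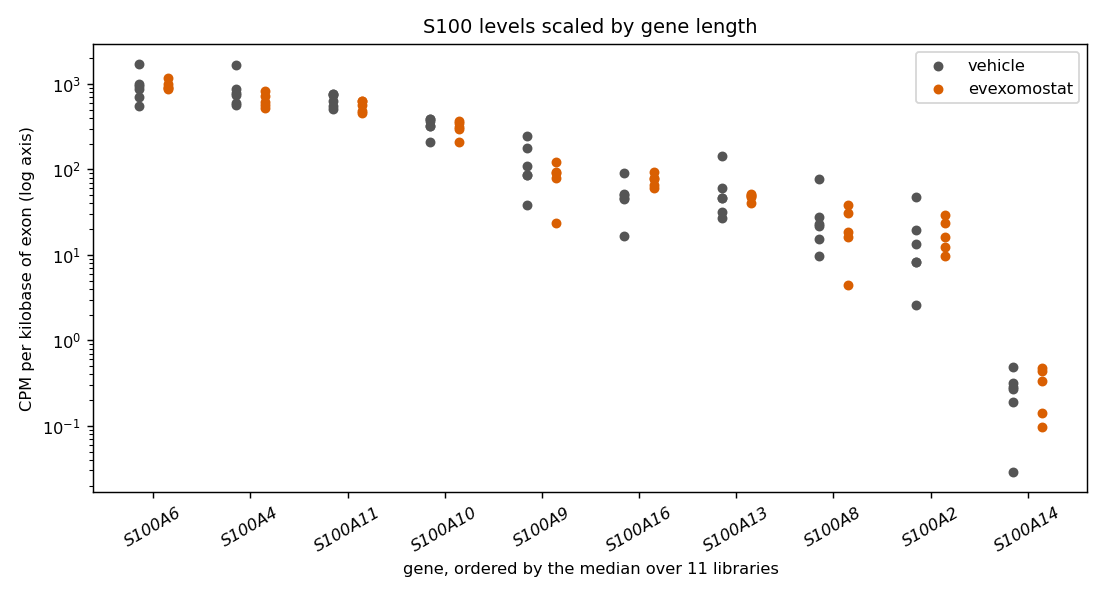
Levels of the 10 S100 genes in CPM per kilobase of exon on a log axis, each point 1 tumour, vehicle in grey and evexomostat in orange, genes ordered by their median over 11 libraries. S100A6, S100A4, S100A11 and S100A10 have medians from 323 to 931, S100A14 a median of 0.283.

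None of the 10 S100 genes passed the test for a difference between evexomostat and vehicle tumours. In edgeR's quasi-likelihood test 0 of 10 had an adjusted p-value under 0.05, against 0.606% of all 16653 tested genes (0.174% higher and 0.432% lower). At an unadjusted p under 0.05 the count was also 0 of 10, against 13.4% of all genes, and DESeq2 and limma-voom also called 0 of 10 after adjustment. Of the 10 log2 fold changes, 6 were below 0 and 4 above, where 55.4% of all tested genes were below and 44.6% above, with a median log2 fold change of -0.20 beside -0.04 over all tested genes. In every one of the 10 genes the levels of the 2 groups overlapped, where 2.97% of all tested genes had no overlap. None of the 10 had an adjusted p-value under 0.05 in the authors' deposited table, and S100A16 was the only 1 with an unadjusted p-value under 0.05.

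**Figure D2:**
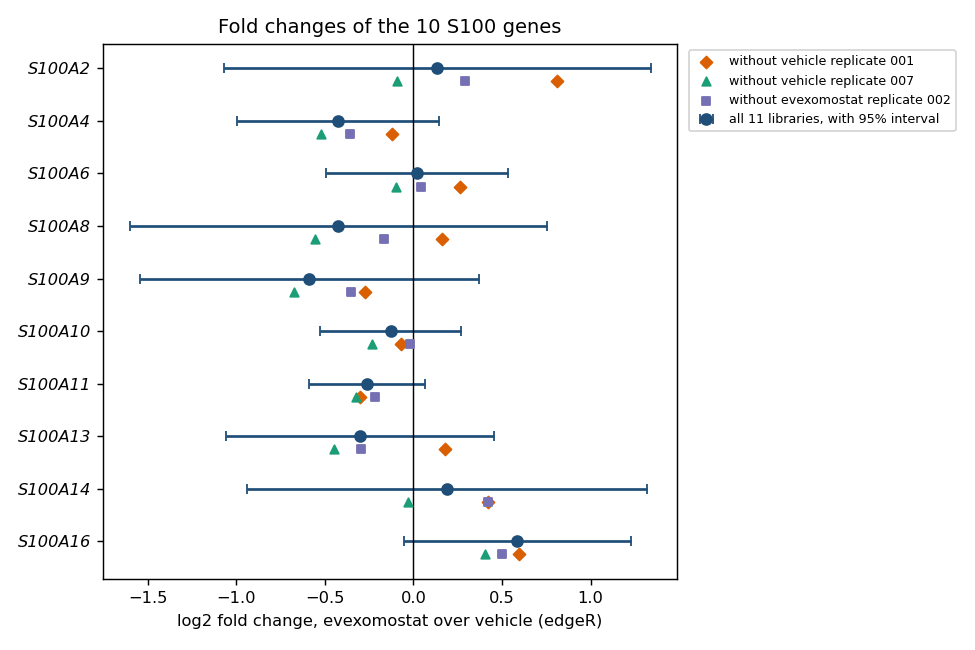
Log2 fold change of each S100 gene, evexomostat over vehicle, from edgeR, with its 95% interval over 11 libraries (circles) and the values without vehicle replicate 001, vehicle replicate 007 or evexomostat replicate 002. All 10 intervals include 0, and S100A16 lies farthest to the right at 0.59.

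S100A6 (calcyclin, which binds the ubiquitin ligase adaptor CACYBP) was at 471 CPM in the lowest vehicle tumour, 765 at the vehicle median and 1434 in the highest. Under evexomostat it was at 768, 988, 789, 747 and 836 CPM in replicates 002, 003, 004, 005 and 007. The treated tumours lay close together inside the vehicle range, with vehicle replicates 003, 006 and 007 below all of them and vehicle replicate 001 above. Its fold change on the log2 scale was 0.02 (95% interval -0.49 to 0.54, edgeR adjusted p 0.985). Without vehicle replicate 001 it was 0.27.

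S100A4 (metastasin, which binds non-muscle myosin IIA and is known from cell migration) was at 466, 632 and 1393 CPM in the lowest, median and highest vehicle tumour. Under evexomostat it was at 436, 685, 595, 470 and 514 CPM in replicates 002, 003, 004, 005 and 007. Evexomostat replicate 002 was the lowest of all 11 tumours and vehicle replicate 001 the highest. On the log2 scale the difference was -0.42 (95% interval -0.99 to 0.15, edgeR adjusted p 0.541), and it was -0.12 without vehicle replicate 001.

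S100A10, or p11, pairs with annexin A2 at the cell membrane and is a plasminogen receptor. It was at 266, 434 and 494 CPM in the lowest, median and highest vehicle tumour, and at 265, 390, 457, 371 and 436 CPM in evexomostat replicates 002, 003, 004, 005 and 007. Each group had 1 low tumour, vehicle replicate 007 and evexomostat replicate 002, and the others overlapped. This gave a log2 fold change of -0.13 (95% interval -0.53 to 0.27, edgeR adjusted p 0.834), and -0.0718 without vehicle replicate 001. S100A11 (calgizzarin, a partner of annexin A1) was at 306, 411 and 452 CPM in the lowest, median and highest vehicle tumour. Under evexomostat it was at 288, 371, 377, 272 and 333 CPM in replicates 002, 003, 004, 005 and 007. Evexomostat replicates 002 and 005 lay below every vehicle tumour and the other 3 inside the vehicle range. It was the least variable of the 10 genes, with a 1.66-fold span over all tumours. As a log2 fold change the difference was -0.26 (95% interval -0.59 to 0.07, edgeR adjusted p 0.495), and without vehicle replicate 001 it was -0.30.

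S100A8 and S100A9 form calprotectin, a secreted complex that binds zinc and manganese and signals through TLR4 and AGER (RAGE). It is abundant in neutrophils and in stressed or squamous epithelium. S100A9 was at 22.4, 55.8 and 140.5 CPM in the lowest, median and highest vehicle tumour, and at 13.7, 52.3, 53.7, 46.4 and 70.9 CPM in evexomostat replicates 002, 003, 004, 005 and 007. S100A8 was at 6.19, 14.4 and 50.3 CPM in the lowest, median and highest vehicle tumour, and at 2.86, 24.6, 12.0, 10.5 and 20.1 CPM in the same evexomostat replicates. Both genes were highest in vehicle replicate 001 and lowest in evexomostat replicate 002, so their span was 17.6-fold for S100A8 and 10.3-fold for S100A9. Its fold change on the log2 scale was -0.43 for S100A8 (95% interval -1.60 to 0.75, edgeR adjusted p 0.806) and -0.59 for S100A9 (95% interval -1.54 to 0.37, edgeR adjusted p 0.636). These intervals still include a fall to 0.329 of the vehicle level for S100A8 and to 0.343 for S100A9. A sizeable difference was therefore not excluded. Without vehicle replicate 001 the value was 0.16 for S100A8 and -0.27 for S100A9.

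The calprotectin genes moved together from tumour to tumour. Over the 11 libraries their log2 CPM correlated at a Pearson r of 0.925 (permutation p 0.00013, adjusted 0.00039 over the 3 pairs examined) and a Spearman rho of 0.845 (permutation p 0.00161, adjusted 0.00483). The r was 0.756 without evexomostat replicate 002 and vehicle replicate 001, the pair farthest from the median, 0.896 without vehicle replicate 001 alone, and 0.924 within the 6 vehicle tumours. The 5 evexomostat tumours were too few for a value of their own. The log2 ratio of S100A8 to S100A9 counts averaged -2.01 ± 0.39 in the vehicle group (SD, n = 6) and -1.89 ± 0.48 in the treated group (SD, n = 5). This difference of 0.12 was smaller than the spread between tumours (two-sided exact permutation p 0.677, adjusted 0.894 over 3 ratios, smallest possible 0.00216).

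**Figure D3:**
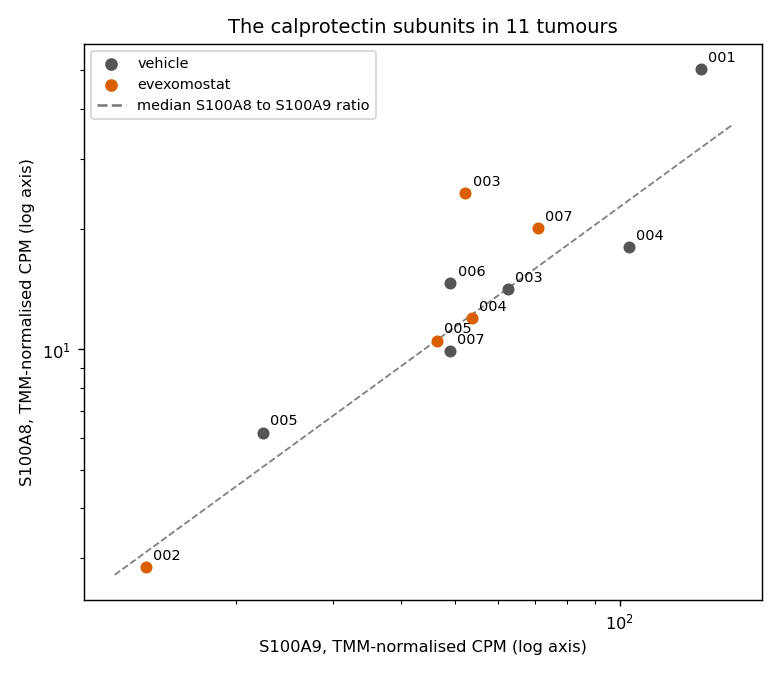
S100A8 against S100A9, both in TMM-normalised CPM on log axes, each point 1 tumour labelled by its replicate number, with the line of the median ratio. The tumours spread along the line from evexomostat replicate 002 (S100A9 at 13.7 CPM) to vehicle replicate 001 (140.5 CPM), with both groups along it.

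Of the members known mainly from epithelium, S100A16 had the smallest p-value of the 10. S100A16 is a widely expressed member that can pair with S100A14. It was at 26.7, 78.1 and 144.5 CPM in the lowest, median and highest vehicle tumour. Under evexomostat it was at 150.0, 97.0, 124, 107 and 127 CPM in replicates 002, 003, 004, 005 and 007. All 5 treated tumours lay above 5 of the 6 vehicle tumours, and vehicle replicate 005 was the exception at 144.5 CPM. On the log2 scale the difference was 0.59 (95% interval -0.06 to 1.23, edgeR unadjusted p 0.0700, adjusted p 0.423), and 0.59 without vehicle replicate 001. The authors' deposited table gives 0.67 with an unadjusted p-value of 0.0171 and an adjusted p-value of 0.370. Vehicle replicates 005 and 007 lay at the ends of the vehicle range, and the log2 fold change was 0.84 without the former (edgeR adjusted p 0.192) and 0.41 without the latter (edgeR adjusted p 0.462).

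S100A14, an epithelial member that can act on AGER, was close to the limit of detection with 1 to 18 counts per library. It was at 0.0368, 0.352 and 0.630 CPM in the lowest, median and highest vehicle tumour, and at 0.124, 0.608, 0.181, 0.430 and 0.560 CPM in evexomostat replicates 002, 003, 004, 005 and 007. The groups covered the same range, and the log2 fold change was 0.19 (95% interval -0.94 to 1.32, edgeR adjusted p 0.921), and 0.42 without vehicle replicate 001. S100A2, a mostly nuclear protein of basal epithelium that can bind p53, was at 4.01, 17.0 and 74.8 CPM in the lowest, median and highest vehicle tumour. Under evexomostat it was at 15.1, 19.4, 37.3, 45.5 and 25.1 CPM in replicates 002, 003, 004, 005 and 007. Vehicle replicates 007 and 001 were the lowest and highest of all tumours, an 18.7-fold span that was the widest of the 10 genes. This gave a log2 fold change of 0.13 (95% interval -1.07 to 1.34, edgeR adjusted p 0.955), and 0.81 without vehicle replicate 001 (edgeR adjusted p 0.278).

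S100A13 takes part in the export of FGF1 and IL1A, growth factor and cytokine cargoes that leave the cell without a signal peptide. It was at 24.9, 42.4 and 130.1 CPM in the lowest, median and highest vehicle tumour. Under evexomostat it was at 43.2, 47.3, 45.2, 37.6 and 45.9 CPM in replicates 002, 003, 004, 005 and 007. The treated tumours were close to each other and near the vehicle median, and vehicle replicate 001 lay far above all others. As a log2 fold change the difference was -0.30 (95% interval -1.06 to 0.46, edgeR adjusted p 0.783) and turned to 0.18 without vehicle replicate 001. An annotated S100A13 exon overlaps S100A1 by 28 bases on the opposite strand, and reads there could not be assigned by strand if strand was not used in counting. The annotated gene AL162258.1 overlaps S100A13 exons by 318 bases on the same strand, where strand could not separate the reads.

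**Figure D4:**
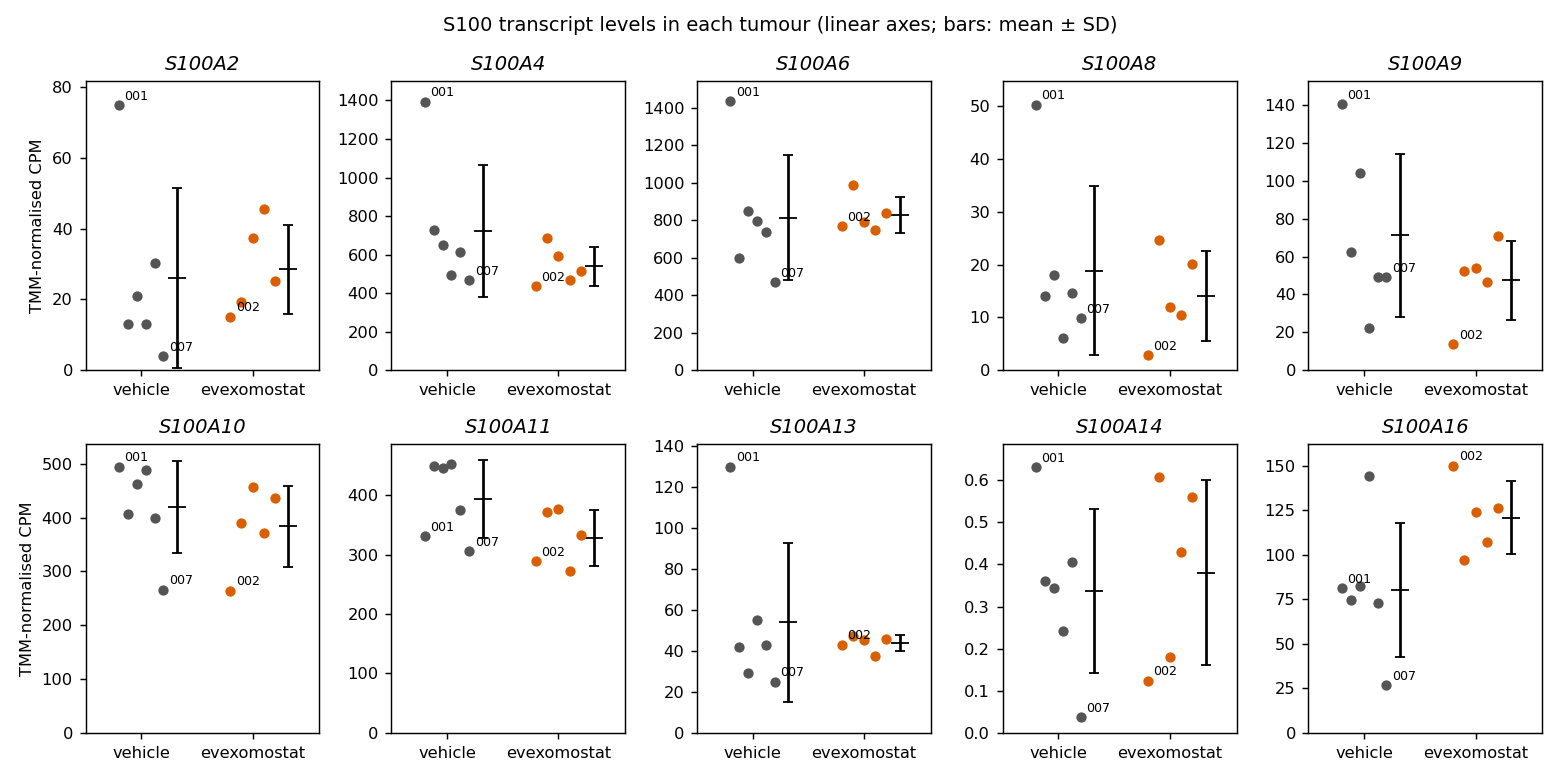
TMM-normalised CPM of each S100 gene in each tumour on linear axes from 0, vehicle in grey and evexomostat in orange, with the mean ± SD beside each group and replicates 001, 007 (vehicle) and 002 (evexomostat) marked. The groups overlap in all 10 genes, and vehicle replicate 001 is the highest point in 8 of them.

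Differences between individual tumours exceeded those between the groups. Vehicle replicate 001 held the highest level in 8 of the 10 genes, S100A11 and S100A16 being the exceptions. It reached 3.85 times the median of the other libraries for S100A8, 3.72 times for S100A2 and 3.03 times for S100A13. Vehicle replicate 007 was the lowest in 5 genes (S100A2, S100A6, S100A13, S100A14 and S100A16), at 0.174 times the median of the others for S100A2 and 0.262 times for S100A16. Evexomostat replicate 002 was the lowest in 4 (S100A4, S100A8, S100A9 and S100A10) and the highest in S100A16, so its S100 genes did not shift as a block. After the trends of each library with transcript length and GC content were removed, vehicle replicate 001 was the highest in 7 of 10 and vehicle replicate 007 the lowest in 7 of 10. That length was the median over annotated transcripts, which can lie far below the exon length (AHNAK 642.5 against 19246 bases). The removal may therefore be partial, and it cannot show that these standings are independent of length. The coefficient of variation was larger among vehicle than among evexomostat tumours in 10 of 10 genes, in 8 without vehicle replicate 001 and in 4 without vehicle replicates 001 and 007, and this difference in spread was not tested.

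**Figure D5:**
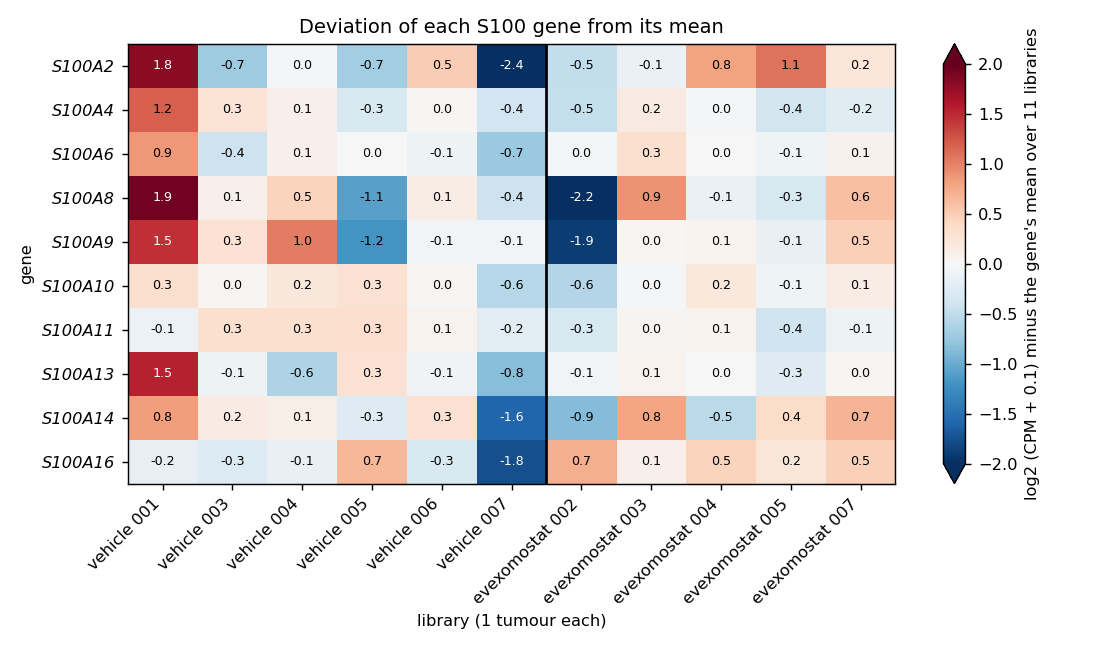
Log2 (CPM + 0.1) of each S100 gene minus its mean over the 11 libraries, genes in rows and tumours in columns, with the black line between vehicle and evexomostat. Vehicle replicate 001 is high in most rows and vehicle replicate 007 low in most, whereas evexomostat replicate 002 is low for S100A8 and S100A9 and high for S100A16.

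The S100 genes were also compared with each other across the 11 libraries by Pearson r of log2 CPM, as a description. Apart from the calprotectin pair, the closest were S100A6 and S100A13 (r 0.824) and S100A4 and S100A8 (0.808), all of them high in vehicle replicate 001. S100A16 had an r of -0.355 to S100A9 and -0.241 to S100A8, weak values over 11 libraries. Outside the family, the 5 genes whose levels followed S100A16 most closely were RELN (r 0.941), NRF1 (0.938), DCBLD2 (0.935), MORN4 (0.932) and LOC399815 (0.926). Without vehicle replicate 001 these values were 0.942, 0.946, 0.934, 0.934 and 0.927. These 5 are the highest values picked from all tested genes outside the family. Such a pick was also high for S100A14, which was close to the limit of detection (ZNF611, r 0.940).

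The binding partners and receptors did not pass the test either. Of 34 partners, targets and receptors, 30 were tested, 9 were higher and 21 lower (44.6% and 55.4% of all tested genes), and 0 passed in either direction, with a median log2 fold change of -0.11. At an unadjusted p under 0.05 there were 2 of 30, KCNK3 and IL1A, against 13.4% of all tested genes. IL1A, the interleukin 1 alpha gene and an S100A13 cargo, averaged 50.2 ± 13.8 CPM in vehicle tumours (SD, n = 6) and 28.9 ± 13.6 CPM in treated ones (SD, n = 5), a log2 difference of -0.80 ± 0.29 (SE) with an edgeR adjusted p of 0.237. KCNK3, a potassium channel carried to the membrane with S100A10, was at 12.3 ± 4.77 CPM (SD, n = 6) and 4.95 ± 1.59 CPM (SD, n = 5), a log2 difference of -1.31 ± 0.30 (SE) with an edgeR adjusted p of 0.0727. KCNK3 passed the threshold without vehicle replicate 001 (edgeR adjusted p 0.0349) and without vehicle replicate 005 (0.0475). FGF1, the other cargo, averaged below 1 CPM in both groups, with a log2 fold change of 0.21 (edgeR adjusted p 0.900).

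Annexin A2 (ANXA2) was at 2972 ± 639 CPM (SD, n = 6) and 2757 ± 365 CPM (SD, n = 5), and annexin A1 (ANXA1) at 671 ± 128 and 678 ± 54.8 CPM. No relation of S100A10 with ANXA2 across tumours was detectable (Pearson r 0.180, permutation p 0.612, adjusted 0.612, Spearman rho 0.327, permutation p 0.328, adjusted 0.328, r -0.309 without vehicle replicates 004 and 001). The same held for S100A11 with ANXA1 (Pearson r -0.398, permutation p 0.227, adjusted 0.341, Spearman rho -0.336, permutation p 0.314, adjusted 0.328, r 0.135 without vehicle replicates 005 and 003). The log2 ratio of S100A10 to ANXA2 differed between the groups by -0.0325 (two-sided exact permutation p 0.894, adjusted 0.894). That of S100A11 to ANXA1 differed by -0.29, from -0.77 ± 0.46 (SD, n = 6) to -1.06 ± 0.27 (SD, n = 5), within the spread between tumours (two-sided exact permutation p 0.225, adjusted 0.675).

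The calprotectin receptors TLR4 and AGER were near the detection limit, with at most 26 counts each in any library. BSG (basigin, a surface receptor for S100A9) was at 541 ± 64.1 CPM (SD, n = 6) and 561 ± 32.2 CPM (SD, n = 5), a log2 fold change of 0.05. The log2 differences were 0.28 for MYH9 (the heavy chain of non-muscle myosin IIA), -0.21 for CACYBP and -0.03 for AHNAK, a scaffold for S100A10 and annexin A2, none past the threshold. MYH9 and AHNAK were lowest in vehicle replicate 001, at 263 and 374 CPM. Without that library the log2 fold changes were 0.10 for MYH9 and -0.22 for AHNAK.

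Among 11 other genes with an S100 name, 5 were tested and 0 passed. S100P, a placental member found in several carcinomas, averaged 3.60 ± 2.32 CPM in vehicle tumours (SD, n = 6) and 1.56 ± 0.865 CPM in treated ones (SD, n = 5), a log2 difference of -1.21 ± 0.46 (SE) with an edgeR adjusted p of 0.264. S100PBP, which encodes a binding protein of S100P rather than an S100 protein, was at 51.1 ± 6.50 and 63.5 ± 3.17 CPM (log2 difference 0.31 ± 0.11 SE, edgeR adjusted p 0.243). Of 26 calcium-binding EF-hand genes outside the family, 23 were tested and 0 passed, with a median log2 fold change of -0.12. Of the 23, 9 were higher and 14 lower (44.6% and 55.4% of all tested genes). CALU (calumenin of the secretory pathway) and TESC (tescalcin) had the smallest p-values, with log2 fold changes of -0.58 and -0.74 and edgeR adjusted p-values of 0.211 and 0.321. CALU passed without vehicle replicate 001 (edgeR adjusted p 0.0390), where 3 of the EF-hand genes passed. At an unadjusted p under 0.05 there were 2 of 5 S100-named genes and 2 of 23 EF-hand genes, beside 13.4% of all tested genes.

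Other cells that could carry S100 transcripts were examined through marker lists, and in bulk tumour RNA fewer cells of a type cannot be told apart from less RNA per cell. Squamous and keratinocyte genes, whose cells also express S100A2, S100A8 and S100A9, summed to 439 to 1100 CPM under vehicle and 235 to 706 CPM under evexomostat. Their sum was highest in vehicle replicate 001 and lowest in evexomostat replicate 002, the tumours that also had the most and the least S100A8 and S100A9. Most of the sum in both was 1 keratin, KRT17, at 990 CPM in vehicle replicate 001 and 183 CPM in evexomostat replicate 002. FLG went the other way and was lowest of all libraries in vehicle replicate 001, at 0.776 CPM. Its annotated transcript is 12747 bases long, and levels in that library fell with transcript length. The FLG value therefore cannot show whether the list moved as a block. Of 23 squamous genes, 13 were tested, 3 higher and 10 lower (44.6% and 55.4% of all tested genes), with a median log2 fold change of -0.39. An unadjusted p under 0.05 was seen in 2 of 13, against 13.4% of all tested genes, and 0 passed the threshold. The cornified layer markers KRT1, SPRR1A, SPRR1B and SPRR3 had 0 counts in all libraries. KRT4 and FLG had the smallest p-values, at log2 fold changes of -2.95 and -1.56 (edgeR adjusted p 0.0780 and 0.276). KRT4 was near the detection limit, averaging 0.772 CPM in vehicle and 0.0970 CPM in evexomostat tumours, with 0 to 47 counts per library. KRT4 passed without vehicle replicate 007 (edgeR adjusted p 0.0455) and FLG without vehicle replicate 001 (0.0448). The part of squamous cells in the S100 levels was not tested.

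Neutrophil and myeloid markers summed to 102 to 144 CPM under vehicle and 111 to 131 CPM under evexomostat. Of 11 tested, 5 were higher and 6 lower (44.6% and 55.4% of all tested genes), and 0 passed the threshold. CXCR1 and FPR1 had at most 2 counts in any library, FPR2 had 0, and CXCR2 at most 13. Other genes of that list were detected in every library, among them ELANE (235 to 371 counts), MPO (90 to 160), CSF3R (73 to 152), ITGAM (264 to 1025) and LYZ (707 to 967). The part of myeloid cells in the S100 levels was not tested. CD68 and TYROBP had the smallest p-values of that list, at log2 fold changes of -0.30 and -0.22 (edgeR adjusted p 0.610 and 0.792). Luminal breast markers summed to 369 to 796 CPM and 493 to 615 CPM (KRT7 -0.49 and KRT18 0.30 on the log2 scale), and stromal and endothelial markers to 409 to 2073 CPM and 505 to 1083 CPM (ACTA2 -0.65, PECAM1 -0.43), with 0 past the threshold in either. Adipocyte markers summed to 13.4 to 68.3 CPM and 10.3 to 28.8 CPM (LPL -1.03, PLIN4 -0.98), again with 0 past the threshold. Skeletal muscle markers summed to 4.81 to 23.4 CPM under vehicle and 6.92 to 532 CPM under evexomostat, highest in evexomostat replicate 005. Of these, 7 of 7 tested genes were higher, against 44.6% of all tested genes. An unadjusted p under 0.05 was seen in 7 of 7, against 13.4% of all tested genes, and 0 passed the threshold. The log2 fold changes of ACTA1 and ATP2A1 were 3.85 and 2.50, and 1.87 and 1.07 without evexomostat replicate 005. Evexomostat replicate 005 was the lowest of 11 for S100A11 and otherwise at neither end of the S100 genes.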

How the data were processed

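Total RNA of 11 xenografts (6 vehicle, 5 evexomostat) was sequenced as paired-end reads, per the labels' protocols. The submitters' processing notes list bcl2fastq 2.17, STAR 2.7.5c, featureCounts, Subread and edgeR with the builds GRCh37 and hg19. Annotation, use of strand and handling of mouse reads are not given in the sources used here, so similar mouse reads may be counted in human genes. The authors deposited whole-number read counts per gene symbol, with no normalization, and an RPM table made from them (largest difference from a recomputation 2.3e-13). The authors' deposited comparison table gives log2 fold changes, p-values and the standard deviation of the RPM signal per group.

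Groups and replicate numbers came from the titles, and columns were matched by the code in the sample description. The labels number the samples but do not say that each came from a separate animal, so p-values measure the spread between these libraries, which may be partly technical. The S100 genes, gene lists and tests were chosen with earlier results of these data known. All 10 S100 genes were described. From each list the text names the genes past the threshold, or else the 2 with the smallest p-values, and for S100A16 the 5 genes most alike. 10 partners were always included. Further luminal, squamous and myeloid markers are named with their levels only, and were chosen after their values were seen.

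Genes passed filterByExpr (minimum count 10, minimum total 15), leaving 16653 of 28152. Counts were scaled by TMM and tested by the quasi-likelihood method of edgeR 4.0.16 in R 4.3.3 over all genes with no covariates, Benjamini-Hochberg adjustment and a threshold of 0.05. Standard errors and 95% intervals are those implied by the F statistic. Log2 CPM for correlations used a prior count of 2, and ratios added 0.5 counts. Correlation p-values used 100000 permutations. A floor of 3 counts is 0.0764 to 0.132 RPM, covering counting error only. Alternatives were RLE and upper quartile scaling, DESeq2 1.42.0, limma 3.58.1 (voom with and without quality weights, trend on log2(RPM + 1) and log2(RPM + 0.1)), other filters, a replicate block and leaving out each library. A correction for length and GC, with splines of 5 degrees of freedom and GENCODE 29 transcripts (94.55% of tested genes matched, all 10 S100 genes included), and the removal of 2 vehicle libraries together were added after seeing the data. Exon lengths came from the same annotation. On simulated data with 200 of 16504 tested genes changed 4-fold, edgeR recovered 98% with 7.55% of calls false. DESeq2 recovered 98.5% there with 19.9% of calls false. Recovery of differences smaller than 4-fold was not tested.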

Additional observations from a re-analysis of the deposited data

Results flagged for a closer look

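A library was singled out where its gap to the nearest tumour of its group was a large part of the group's range (Dixon's criterion at 95%). For normally distributed values, chance does this in about 1 in 20 groups. Gene levels were taken as linear CPM, which widens gaps at high values, and were not examined on the log scale. Of 46 groups examined, 7 met it, and all 7 were vehicle replicate 001. The groups share the same libraries, so these 7 are not independent and cannot be set against that rate. In 4 S100 genes it was the highest vehicle tumour. S100A2 was at 74.8 CPM there against 4.01 to 30.3 in the other vehicle tumours, and S100A4 was at 1393 CPM against 466 to 729. S100A8 was at 50.3 CPM against 6.19 to 18.1, and S100A13 at 130.1 CPM against 24.9 to 55.2. Among the partners, FGF1 was at 1.02 CPM there against 0.162 to 0.401. AHNAK and MYH9 were lowest there, at 374 CPM against 1300.3 to 1755 and at 263 CPM against 836 to 999. With length and GC trends removed, a removal that may be partial, this library read 79.9 CPM for S100A2, 1445 for S100A4, 49.5 for S100A8 and 142.7 for S100A13. Whether the tumour or its RNA differed was not tested.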

How the results depend on the processing

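The count of S100 genes past the threshold was 0 in all 24 alternatives. The number with an unadjusted p under 0.05 ranged from 0 to 3, the most with quality weights in limma-voom. S100A4, S100A11 and S100A16 kept their direction in all 24. In the RPM settings the median over all genes shifted by 0.114 and 0.137 (log2). The cause of the changes below was not tested. Depth limits S100A14, TLR4, AGER and FGF1, with 26 counts or fewer per library, and KRT4, with 47 or fewer.

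The total of 101 genes past the threshold became 649 with DESeq2, 1059 with quality weights, 733 on 8 libraries with no block and 558 without vehicle replicates 001 and 007, and ran from 1 to 865 across fits leaving out 1 library. The 865 came without vehicle replicate 001, the 1 without evexomostat replicate 005.

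Log2 fold changes that turned direction did so without passing the threshold. Leaving out 1 library, S100A2 ran from -0.10 to 0.81, S100A6 from -0.0955 to 0.27, S100A8 from -0.73 to 0.16, S100A13 from -0.45 to 0.18, S100A14 from -0.0329 to 0.42, ANXA1 from -0.0441 to 0.0830, AHNAK from -0.22 to 0.12, TLR4 from -0.27 to 0.0211 and FGF1 from -0.0983 to 0.61. The log2 ratios ran from -0.0839 to 0.22 (S100A8 to S100A9) and -0.14 to 0.14 (S100A10 to ANXA2). The number of S100 genes below 0 was 6, and ranged from 2 with the replicate block and 3 on the same 8 libraries without it to 9 without vehicle replicate 007, with 4 without vehicle replicate 001.

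The replicate numbers 003, 004, 005 and 007 are used in both groups. Pairs with the same number had correlations of -0.272, 0.0664, 0.0489 and -0.0998 between their departures from the group means. No likeness within pairs was seen, but so few pairs cannot settle whether a shared number marks a pairing or a batch. The replicate block on those 8 libraries gave 107 genes, none an S100 gene. With the block, and on the same 8 libraries without it, values were 1.43 and 1.31 for S100A2 (adjusted p 0.105 and 0.102), 0.50 and 0.47 for S100A8, 0.0516 and 0.0205 for S100A10, 0.28 and 0.21 for S100A13, -0.0408 and -0.0247 for MYH9, 0.16 and 0.17 for TYROBP and 0.12 and 0.0555 for LPL. S100A9 was at 0.0868 with the block, and the S100A10 to ANXA2 ratio at 0.21.

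With quality weights S100A13 was at 0.11, TLR4 at 0.0251 and CACYBP at 0.0389. With the RPM pseudocounts of 1 and 0.1, S100A13 was at 0.0204 and 0.0239, ANXA2 at 0.00444 and 0.00445, and AHNAK at 0.145 and 0.145. AHNAK was at 0.0118 with upper quartile scaling and 0.0612 with limma-voom. After the length and GC correction S100A6 was at -0.11 and BSG at -0.0597. Without vehicle replicates 001 and 007 S100A8 was at 0.0829, S100A13 at 0.0552 and CACYBP at 0.0342. KCNK3 passed the threshold in 4 of 24 alternatives, and CALU and FLG in 3 each. KRT4 passed in 4 of the 16 in which it was tested, with log2 fold changes from -3.40 to -0.62 over those 16. KRT18 passed without vehicle replicates 001 and 007 (adjusted p 0.0422) and ACTA1 with DESeq2 (adjusted p 0.0264). The EF-hand list reached 3 genes past the threshold with quality weights, on 8 libraries with no block and without vehicle replicate 001.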

Other observations

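S100A3, a cysteine-rich member known from the hair cuticle, was not among the 10 genes and is named here after its values were seen. It was at 35.6 CPM in vehicle replicate 001, 4.37 CPM in vehicle replicate 007 and 11.8 to 17.0 CPM in the other vehicle tumours, against 8.01 to 10.7 CPM in the 5 evexomostat tumours (log2 fold change -0.80, SE 0.38, edgeR adjusted p 0.382). Every evexomostat tumour lay below 5 of the 6 vehicle tumours.

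S100A7 (psoriasin, a skin defence protein) was barely detected, with 1 to 15 counts per library, and S100A12 with 1 to 16. S100B had at most 3 counts and S100G at most 2 in any library. These genes did not pass the count filter and were not tested.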
